A study of Mus musculus with 3 samples.

Results

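The metallothionein genes Mt1 and Mt2, the zinc exporter gene Slc30a1 and the zinc sensor gene Mtf1 are described here in tumor-infiltrating T cells, as 4 of the 33696 genes in the deposited tables. The genes were chosen by symbol after earlier work on these data had found Mt1 and Mt2 at a higher level in 1 of 3 libraries, so their levels between libraries are given as a description, with no test. The study asked how T cells in tumors differ after adoptive transfer with different cytokine agonists. From B16F10 melanoma tumors of C57BL/6 mice, live cells bearing Thy1.1 and CD8 were sorted and sequenced as single cells, in 1 library per treatment and in 1 experiment. All T cells were pmel cells, which carry a transgenic T cell receptor for the melanoma antigen gp100, were activated and preconditioned in culture before transfer, and went into irradiated mice under the low dose regimen. Tumors of all 3 groups were taken on day 18 after tumor injection. In the group sIL-2, cells and mice received super IL-2, an engineered IL-2 with high affinity for the receptor chain IL-2Rβ. In the group IL-2/21-Trikine they received sIL-2 joined to a binder of mouse IL-21Rα, and in the group sIL-2 + IL-21 the cells were preconditioned with both cytokines while the mice were then given sIL-2 alone. No treatment had a second library and the number of mice in each library was not found in the methods, so a treatment cannot be told apart from its library, and intervals below cover counting error only. A row of 3 values gives sIL-2 first, then IL-2/21-Trikine, then sIL-2 + IL-21.

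Metallothioneins are small cysteine-rich proteins that bind zinc and copper and buffer the free metal in the cell. Free zinc activates MTF-1, the transcription factor encoded by Mtf1, which binds metal response elements (MREs) in promoters and drives Mt1, Mt2 and Slc30a1. Slc30a1 encodes ZnT1, the exporter that carries zinc out through the plasma membrane, so the 3 target genes together are a common readout of zinc load, while glucocorticoids, oxidants and hypoxia are also known to raise metallothioneins.

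The promoters are shown because the known control of these genes runs through MREs. Each is 300 bases of the RefSeq annotation on GRCm38.p6, from 250 bases before the start site to 50 after it, on the plus strand of chr8:94178839-94179138 for Mt1, chr8:94172368-94172667 for Mt2, chr1:191906531-191906830 for Slc30a1 and chr4:124802299-124802598 for Mtf1. Capitals mark the MRE core, searched as TGCACNC or TGCGCNC on both strands:
Mt1: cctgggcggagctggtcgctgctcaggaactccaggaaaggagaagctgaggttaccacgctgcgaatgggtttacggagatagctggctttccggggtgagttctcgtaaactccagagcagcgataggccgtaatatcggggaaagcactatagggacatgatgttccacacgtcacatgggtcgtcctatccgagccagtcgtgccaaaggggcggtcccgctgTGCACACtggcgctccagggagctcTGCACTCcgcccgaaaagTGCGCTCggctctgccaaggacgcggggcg
Mt2: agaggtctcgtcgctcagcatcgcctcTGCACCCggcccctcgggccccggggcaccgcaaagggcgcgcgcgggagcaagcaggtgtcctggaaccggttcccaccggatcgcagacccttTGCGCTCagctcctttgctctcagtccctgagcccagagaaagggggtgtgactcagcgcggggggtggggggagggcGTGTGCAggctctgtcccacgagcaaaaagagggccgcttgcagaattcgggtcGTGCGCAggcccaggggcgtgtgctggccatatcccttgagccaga
Slc30a1: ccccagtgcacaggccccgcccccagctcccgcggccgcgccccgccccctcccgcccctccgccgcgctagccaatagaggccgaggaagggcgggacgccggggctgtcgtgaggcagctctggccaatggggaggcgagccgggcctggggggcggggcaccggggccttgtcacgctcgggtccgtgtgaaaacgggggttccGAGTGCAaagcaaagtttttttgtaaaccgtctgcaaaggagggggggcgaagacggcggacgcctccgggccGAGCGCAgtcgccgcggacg
Mtf1: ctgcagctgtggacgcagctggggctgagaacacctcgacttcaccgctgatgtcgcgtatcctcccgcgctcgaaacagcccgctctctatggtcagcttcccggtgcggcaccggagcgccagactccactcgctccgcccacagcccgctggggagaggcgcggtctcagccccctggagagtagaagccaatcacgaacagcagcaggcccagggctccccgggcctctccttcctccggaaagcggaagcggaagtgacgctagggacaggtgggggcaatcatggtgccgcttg
The Mt1 window held 3 MRE cores, at positions -23, 2 and 20 with the start base as 0, the Mt2 window held 4, of which the first lay at -223, and the Slc30a1 window held 2, at -43 and 30. The Mtf1 window held 0. These positions and counts hold for the annotated RefSeq start site only. Other start sites and bases outside the windows were not searched. Over the promoters of 32851 genes, 25.7% held at least 1 core, 7.11% at least 2, 1.97% at least 3 and 0.517% at least 4. Mt2 and Mt1 are next to each other on chromosome 8, in the order Mt4, Mt3, Gm39227, Mt2 and Mt1. Their transcripts are close paralogues, and the part of reads that could map to either was not tested.

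The kept libraries held 7760 cells (sIL-2), 13299 cells (IL-2/21-Trikine) and 9798 cells (sIL-2 + IL-21), with 130200802 to 168041089 unique molecular identifiers (UMIs, 1 per captured RNA molecule) and medians of 10254 to 14055.5 UMIs per cell. Libraries shared 18 to 41 cell barcodes, at most 0.418% of the smaller library. All 7 T cell markers were detected, and 98.4% to 99.4% of cells held a UMI of at least 1 of them. In the comparisons of libraries below, 8824 genes with a mean of at least 5 UMIs per 1000000 UMIs (CPM) were used, and a gene was counted as higher or lower past a log2 ratio of 0.5. By that rule 2.88% of them were higher and 5.81% lower in IL-2/21-Trikine than in sIL-2, 5.79% higher and 10.1% lower in sIL-2 + IL-21 than in sIL-2, and 3.58% higher and 3.51% lower in sIL-2 + IL-21 than in IL-2/21-Trikine.

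Mt1 and Mt2 were 4.64- to 5.88-fold higher in the sIL-2 + IL-21 library than in the other 2, while Slc30a1 and Mtf1, the exporter and the sensor, stayed within a log2 ratio of 0.5 in every pair of libraries. Mt1 (ENSMUSG00000031765) was at 204 CPM (95% exact Poisson interval 201 to 206) in sIL-2, 192 CPM (190.1 to 194) in IL-2/21-Trikine and 1010.5 CPM (1006 to 1015) in sIL-2 + IL-21. Mt2 (ENSMUSG00000031762) was at 116 CPM (114 to 118), 91.2 CPM (89.8 to 92.7) and 536 CPM (533 to 540) in the same order. The sIL-2 + IL-21 library had the highest level of both genes, for which they had been chosen. The log2 ratio of sIL-2 + IL-21 over sIL-2 was 2.31 for Mt1 (interval 2.29 to 2.33, 4.96-fold) and 2.21 for Mt2 (2.19 to 2.24, 4.64-fold), where the median of all 8824 genes was -0.08. These ratios placed Mt1 at rank 3 and Mt2 at rank 5 from the highest. Over IL-2/21-Trikine the log2 ratios were 2.39 for Mt1 (rank 11) and 2.56 for Mt2 (rank 7). A further comparison took the 9 clusters with at least 50 cells in every library and gave each the same share in each library. The ratio of the summed genes was then over 1.5 times smaller than over all cells. It was log2 1.55 over sIL-2 in place of 2.28, and 1.69 over IL-2/21-Trikine in place of 2.45. Part of that fall came from leaving out cluster 10, without which the ratios were 2.16 and 2.36 before any change of shares.

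IL-2/21-Trikine and sIL-2 lay close to each other. The log2 ratio of IL-2/21-Trikine over sIL-2 was -0.09 for Mt1 and -0.34 for Mt2, beside a median of -0.08 over all genes. For Mt1 plus Mt2 together it was -0.17. That small difference changed its sign to 0.13 when cells with 2 or more UMIs of other cell types' markers were left out. It was 0.03 when every cell was thinned to the same depth. The filter on markers counted Fcer1g, a leading gene of the Terminal cytotoxic-like T cell cluster below, so it also removed T cells. It kept 6041, 12143 and 7034 cells.

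The export gene did not share the difference of the metallothioneins. Slc30a1 (ENSMUSG00000037434) was at 7.72 CPM (7.25 to 8.21) in sIL-2, 6.87 CPM (6.48 to 7.28) in IL-2/21-Trikine and 8.53 CPM (8.10 to 8.99) in sIL-2 + IL-21. Its log2 ratio of sIL-2 + IL-21 was 0.14 over sIL-2 (0.03 to 0.26) and 0.31 over IL-2/21-Trikine (0.20 to 0.43), ranks 2185 and 722. Mtf1 (ENSMUSG00000028890) was at 17.9 CPM (17.2 to 18.7), 16.4 CPM (15.8 to 17.0) and 17.5 CPM (16.8 to 18.1). The Mtf1 ratio of sIL-2 + IL-21 over sIL-2 was -0.04 on the log2 scale, with an interval of -0.12 to 0.04 that held 0. Slc30a1 rested on 1005 to 1434 UMIs per library and Mtf1 on 2334 to 2934 UMIs, so single cells carried little information on either.

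**Figure D1:**
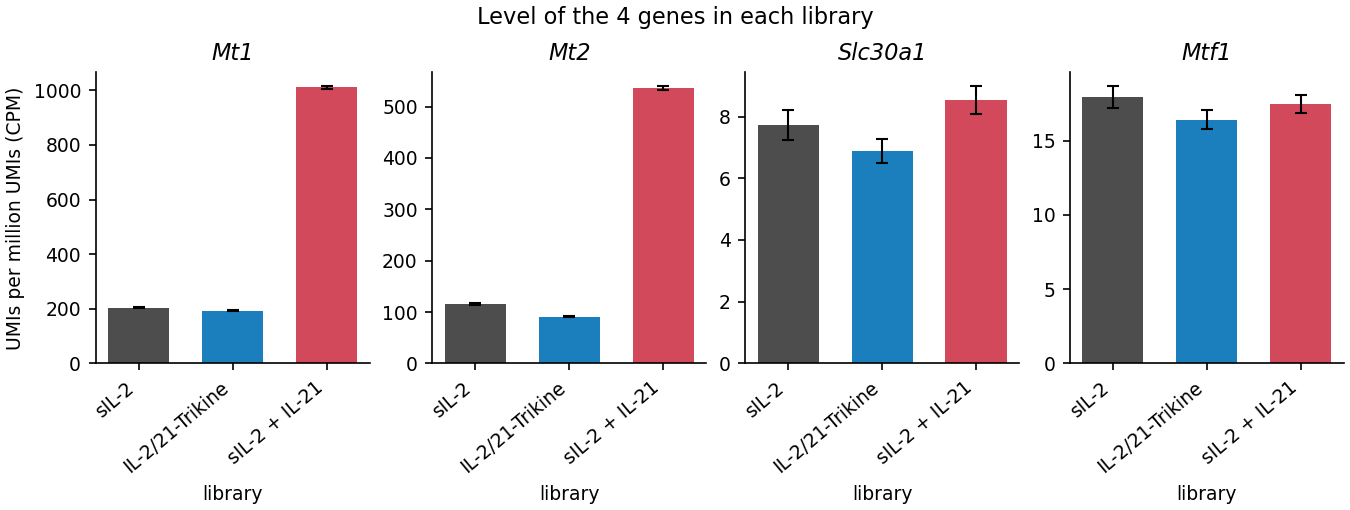
Bars give the level of Mt1, Mt2, Slc30a1 and Mtf1 in each library in CPM (linear axes from 0, a separate axis per gene), and error bars the 95% exact Poisson interval. Mt1 and Mt2 were far higher in the sIL-2 + IL-21 library, while the 3 bars of Slc30a1 and of Mtf1 stood close together.

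Among the other metallothioneins, Mt3, known mainly from brain, was at 2.33, 1.83 and 9.30 CPM in the 3 libraries. The log2 ratio of sIL-2 + IL-21 was 2.00 over sIL-2 (1.82 to 2.18) and 2.35 over IL-2/21-Trikine, with a mean over the libraries under the 5 CPM minimum. Mt4, a metallothionein of squamous epithelium, had 0, 0 and 1 UMI.

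The wider list of zinc genes held 29 genes, namely the 4 metallothioneins, Mtf1, the 10 exporters of the Slc30 (ZnT) family, which lower cytosolic zinc, and the 14 importers of the Slc39 (ZIP) family, which raise it. Without Mt1 and Mt2, 14 of 27 passed the 5 CPM minimum, being 6 exporters, 7 importers and Mtf1. Of these 14, 0 were past the log2 ratio of 0.5 in sIL-2 + IL-21 over sIL-2 in either direction, with a median of -0.08 beside -0.08 over all genes. Slc39a14, which encodes the importer ZIP14, was the single gene past it elsewhere, at 15.7 CPM in sIL-2, 9.83 CPM in IL-2/21-Trikine and 15.5 CPM in sIL-2 + IL-21. The IL-2/21-Trikine library was the low one, with a log2 ratio of -0.67 over sIL-2, and sIL-2 + IL-21 was at 0.66 over it.

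The remaining measured transporters varied little. Among exporters, Slc30a9 was at 51.4, 44.7 and 45.5 CPM, Slc30a7 at 28.2, 23.2 and 24.6 CPM, and Slc30a5 at 27.5, 26.0 and 25.1 CPM. Slc30a6 lay between 14.8 and 14.9 CPM and Slc30a4 between 6.30 and 6.80 CPM. Among importers, Slc39a7, which releases zinc from the endoplasmic reticulum, was at 32.2, 26.4 and 29.7 CPM, and Slc39a6 at 24.8, 19.7 and 24.4 CPM. Slc39a10 lay between 19.0 and 19.7 CPM, Slc39a9 between 12.2 and 13.6 CPM, Slc39a11 between 8.87 and 10.0 CPM and Slc39a1 between 8.20 and 10.7 CPM. Slc30a2, Slc30a3, Slc30a8, Slc30a10, Slc39a2, Slc39a3, Slc39a4, Slc39a5, Slc39a8, Slc39a12 and Slc39a13 had a mean over the 3 libraries under 5 CPM, as had Mt3 and Mt4.

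The Mt1 and Mt2 UMIs were concentrated in a minority of cells. The sIL-2 + IL-21 library differed both in how many such cells it held and in the level of the cells sorted outside them. To compare cells of unequal depth, each cell was thinned at random to 2000 UMIs, which left out 266 shallower cells of sIL-2, 1775 of IL-2/21-Trikine and 364 of sIL-2 + IL-21. After thinning, 14.4% of sIL-2 cells, 15.4% of IL-2/21-Trikine cells and 40.9% of sIL-2 + IL-21 cells held an Mt1 UMI, against 42.4%, 39.0% and 70.6% without thinning. For Mt2 the thinned shares were 8.85%, 8.78% and 28.2%, against 31.5%, 26.9% and 59.8%. The thinned shares of sIL-2 and IL-2/21-Trikine lay close to each other for both genes, and the share of sIL-2 + IL-21 was apart from both.

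The highest 10% of cells, with the 3 libraries weighted equally, was cut at 3 thinned UMIs of Mt1 plus Mt2, the whole number that came nearest, and its cells, 9.36% with equal weights, are called high cells. High cells were 282 of 7494 cells in sIL-2 (3.76%, 95% exact binomial interval 3.34 to 4.22), 413 of 11524 in IL-2/21-Trikine (3.58%, 3.25 to 3.94) and 1955 of 9434 in sIL-2 + IL-21 (20.7%, 19.9 to 21.6). They held 50.1%, 46.7% and 80.7% of all Mt1 plus Mt2 UMIs. Exactly at the limit were 113, 165 and 445 cells, and 1 UMI under it 287, 410 and 814 cells. High cells were also deeper, with medians of 26524.5, 18291 and 23990 UMIs before thinning, against 12264.5, 10860 and 10992.5 UMIs in cells with no thinned Mt1 or Mt2 UMI. Further out, 0.440%, 0.469% and 5.83% of cells held 10 or more thinned UMIs of the pair, and 0.107%, 0.156% and 1.90% held 20 or more.

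The difference between libraries was also there in cells outside the highest 10%. Since cells were sorted into groups by their thinned UMIs, the level in each group was read from the UMIs that thinning had not drawn, which the grouping did not use. In high cells Mt1 plus Mt2 was at 2553 CPM in sIL-2, 2562 CPM in IL-2/21-Trikine and 4061 CPM in sIL-2 + IL-21. In cells with 1 or 2 thinned UMIs it was at 413, 391 and 714 CPM, and in cells with 0 it was at 112, 108 and 248 CPM. All cells outside the highest 10% were at 179.5 CPM, 169.6 CPM and 459 CPM, a log2 ratio of 1.35 for sIL-2 + IL-21 over sIL-2 (1.33 to 1.38, 2.56-fold) and 1.44 over IL-2/21-Trikine (1.41 to 1.46, 2.71-fold). Each gene showed this alone, with Mt1 at 117, 115 and 308 CPM and Mt2 at 62.2, 54.3 and 151 CPM outside them. Counts of 0, 1 or 2 thinned UMIs sort cells roughly, so some cells with a high level fall outside the highest 10% by sampling. These values cannot tell a higher level in the remaining cells from a larger number of such misplaced cells. They also cannot tell it from free RNA taken up in droplets, and the part of such RNA was not tested.

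**Figure D2:**
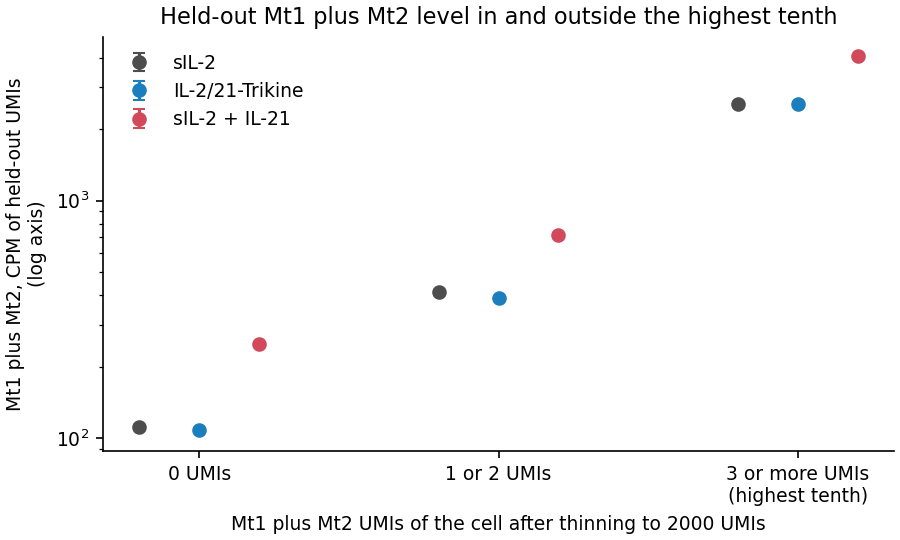
Points give the Mt1 plus Mt2 level (CPM of held-out UMIs, log axis) of each library in cells grouped by their thinned Mt1 plus Mt2 UMIs, with 95% exact Poisson intervals. The sIL-2 + IL-21 library was the highest in every group, at 248 CPM against 112 and 108 CPM in cells with 0 thinned UMIs.

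A deeper thinning, to 5000 UMIs, left out 481, 2570 and 907 cells and showed a difference from the median upward, with the 25th percentile at 0 in each library. The median cell held 0 Mt1 plus Mt2 UMIs in sIL-2, 0 in IL-2/21-Trikine and 1 in sIL-2 + IL-21. The 90th percentile was 3, 3 and 16 UMIs and the 99th percentile 15, 14 and 66 UMIs. Cells with 0 were 67.3%, 64.6% and 31.9%. The 10% of each library's own cells with the most Mt1 plus Mt2 held 71.9%, 69.9% and 62.5% of the Mt1 plus Mt2 UMIs. By that measure the sIL-2 + IL-21 library had the least concentrated distribution of the 3. By the variance over the mean, at 11.9, 13.3 and 32.1, the order was reversed. The means were 1.03, 1.09 and 5.87 UMIs, and the part of this level in either measure was not tested. The sIL-2 + IL-21 library had the highest level in each of 6 ranges of UMIs per cell, from 398 CPM against 92.2 and 141 CPM in cells of 500 to 2000 UMIs to 1989.8 CPM against 624 and 437 CPM in cells of 40000 to 120000 UMIs, while the other 2 libraries changed places between ranges.

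Within each library, cells with more Mt1 also had more Mt2, while Slc30a1 and Mtf1 had no steady direction over the classes. In sIL-2, Mt2 was at 49.9 CPM in cells with 0 thinned Mt1 UMIs and at 1975 CPM in cells with 5 or more. In IL-2/21-Trikine these were 40.1 and 1945 CPM, and in sIL-2 + IL-21 107 and 2394 CPM. The step from each class of cells to the next was upward in all 3 libraries. Slc30a1 in sIL-2 was at 7.32 CPM (6.81 to 7.85) in cells with 0 Mt1 UMIs, 9.02 CPM with 1, 11.5 CPM (8.77 to 14.7) with 2, 5.84 CPM with 3 or 4 and 8.30 CPM with 5 or more. Over the same classes in IL-2/21-Trikine Slc30a1 was at 6.63, 7.35, 8.75, 7.02 and 6.99 CPM, the lowest being the class with 0. In sIL-2 + IL-21 it was at 7.90 CPM (7.29 to 8.54) with 0, 9.04 CPM with 1 and 7.40 CPM with 2. With 3 or 4 it was at 9.12 CPM, and with 5 or more at 10.4 CPM (9.06 to 11.8). There the last class, of 849 cells, was above the first with intervals apart, though the classes between did not rise steadily. From the first class to the last, Mtf1 went from 18.0 to 16.1 CPM in sIL-2 and from 16.5 to 10.5 CPM (6.49 to 16.0, from 95 cells) in IL-2/21-Trikine. In sIL-2 + IL-21 it rose from 16.2 CPM (15.3 to 17.1) to a level with an interval of 18.2 to 22.0 CPM. Mt3 went from 1.79 to 14.0 CPM in sIL-2 and from 5.18 to 16.5 CPM in sIL-2 + IL-21, and rested on 6 UMIs in the highest class of IL-2/21-Trikine.

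**Figure D3:**
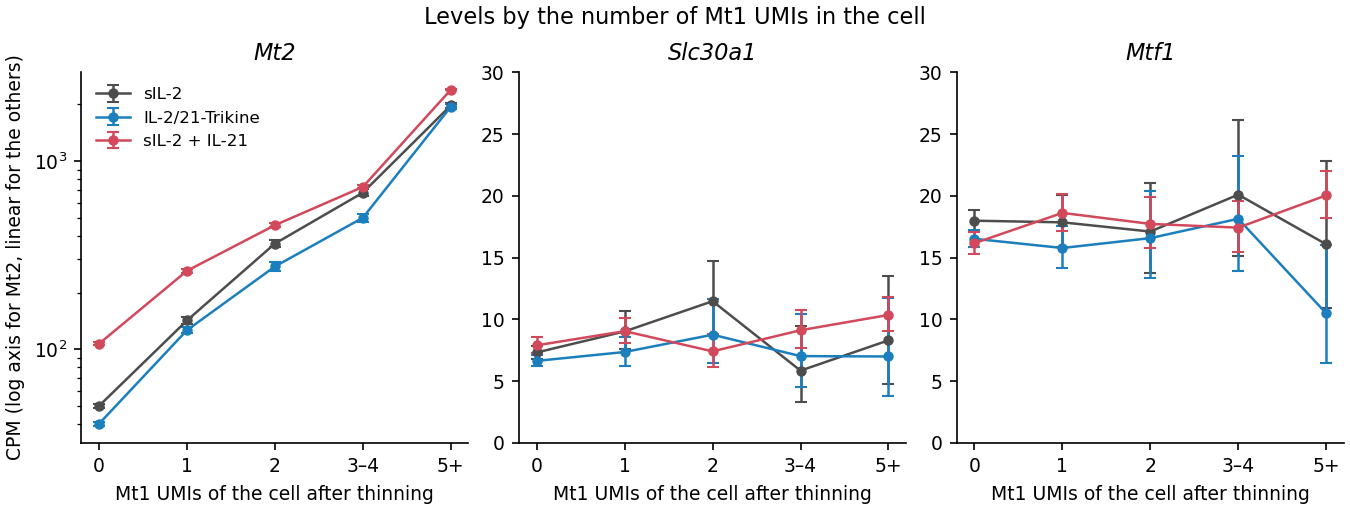
Lines give the level of a gene (CPM, log axis for Mt2 and linear axes for the others) in cells grouped by their number of thinned Mt1 UMIs, 1 line per library, with 95% exact Poisson intervals. Mt2 was higher in each class than in the one before it, while Slc30a1 and Mtf1 moved up and down between classes, Slc30a1 between 5.84 and 11.5 CPM in sIL-2.

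Slc30a1 and Mtf1 were likewise within the threshold in high cells against the rest. The log2 ratio of high cells over the rest was -0.00, 0.07 and 0.15 for Slc30a1 and 0.17, -0.17 and 0.17 for Mtf1. Of the 14 measured zinc genes other than Mt1 and Mt2, 0 were past 0.5 in either direction in any library, with medians of 0.01, -0.03 and 0.02. The background was 5.26% of 8822 genes higher and 11.4% lower in sIL-2, 2.85% and 7.5% in IL-2/21-Trikine, and 1.7% and 8.18% in sIL-2 + IL-21. Mt3, below the minimum, was at 1.77, 1.65 and 1.26. Across cells of at least 2000 UMIs, Pearson's r with Mt1 plus Mt2 on log(1 + counts per 10000) was 0.02 to 0.06 for Slc30a1 and 0.01 to 0.06 for Mtf1, which in counts this sparse is no finding.

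Mt1 and Mt2 were found in every cluster of cells, at levels that differed by cell state. Clusters were made without the zinc genes, and a name was given from marker genes by conditions set after the data were seen. The Terminal cytotoxic-like cluster, led by the granzyme genes Gzmg and Gzmf, had the highest level of the named clusters, at 728 CPM of Mt1 plus Mt2 in sIL-2, 830.4 CPM in IL-2/21-Trikine and 2022 CPM in sIL-2 + IL-21. The Proliferating-like cluster, led by histone genes and Mki67, followed at 534, 331 and 1598 CPM. A cluster left unnamed, number 7, led by Il23a, Il1r2 and Cd70, was at 373, 330 and 1467 CPM. Low levels stood in the Stem-like cluster, led by Dapl1 and Tcf7 among others, at 111, 150.4 and 348 CPM, and in the Early activated-like cluster, led by Il3 and Il2, at 88.2, 137 and 125 CPM. The Interferon-stimulated (ISG)-like cluster was at 53.7, 53.8 and 131 CPM, the lowest of the clusters in sIL-2 and in IL-2/21-Trikine, and there 0.207%, 0.425% and 1.35% of cells were high cells against 13.0%, 14.0% and 30.2% in the Terminal cytotoxic-like cluster. Cluster 10, left unnamed and led by hemoglobin and melanoma genes, stood above all others at 3099, 1355 and 8385 CPM with 48, 791 and 252 cells. In sIL-2 + IL-21 heat shock genes led it instead, with melanoma markers at 15.5 CPM and erythroid markers at 0 CPM. There 93.7% of its cells held a T cell marker UMI. The cells of cluster 10 differed in depth, with medians of 1713, 750 and 15148.5 UMIs. Only 22, 116 and 205 of them reached the 2000 UMIs for thinning. The 3 levels of cluster 10 therefore do not compare like cells. It held 2.42%, 5.60% and 11.9% of the Mt1 plus Mt2 UMIs, and without it the log2 ratio of sIL-2 + IL-21 was 2.16 over sIL-2 and 2.36 over IL-2/21-Trikine. Levels as low as those of the ISG-like cluster can include free RNA taken up in droplets, and its part was not tested.

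Within clusters Mt1 plus Mt2 was again higher in sIL-2 + IL-21 than in sIL-2. Over the 9 clusters with at least 50 cells in every library, this held in 9, with log2 ratios of 0.50 to 2.40 and a median of 1.47, beside 2.28 in the sum over all cells. The highest ratio (interval 2.00 to 2.83) was that of unnamed cluster 9, of shallow cells with a median of 1266 UMIs. It rested on 56 Mt1 plus Mt2 UMIs in sIL-2. The next highest was 1.98, in cluster 7. With the zinc genes among those used for clustering, sIL-2 + IL-21 was higher than sIL-2 in 10 of 11 clusters. Against IL-2/21-Trikine it was higher in 7 of 9, up to 2.27, and lower in the Early activated-like cluster (-0.14) and in unnamed cluster 8, led by Mettl1 and Itm2a (-0.21). IL-2/21-Trikine over sIL-2 was higher in 5 clusters, the furthest being cluster 8 (0.88) and the Early activated-like cluster (0.64), and lower in 2, the Proliferating-like cluster (-0.69) and cluster 7 (-0.18), and in 2 the interval held 0. Of the 9 clusters compared, the 3 with the highest levels were also larger in sIL-2 + IL-21. Cluster 10, higher still but not among the 9, made up 0.619%, 5.95% and 2.57% of cells. The Terminal cytotoxic-like cluster made up 12.9%, 5.74% and 20.9% of cells, the Proliferating-like cluster 9.36%, 15.2% and 21.8%, and cluster 7 4.30%, 4.16% and 18.7%. With all 9 clusters given equal shares, Mt1 plus Mt2 was at 356, 323 and 1045 CPM.

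Most clusters had an interval that held 0 for Slc30a1 and for Mtf1 in each pair of libraries. Slc30a1 in sIL-2 + IL-21 over sIL-2 had an interval above 0 in 1 of 9 clusters, the Terminal cytotoxic-like one, at a log2 ratio of 0.51 (0.23 to 0.80), and an interval that held 0 in the other 8. The Terminal cytotoxic-like levels were 7.30, 9.72 and 10.4 CPM, so there IL-2/21-Trikine stood nearer to sIL-2 + IL-21. Over IL-2/21-Trikine the Slc30a1 interval of sIL-2 + IL-21 was above 0 in 3 of 9 clusters, and the ratios of all 9 lay between 0.098 and 0.65. For Mtf1, sIL-2 + IL-21 over sIL-2 had 0 intervals above 0, 1 under it (cluster 7, -0.31) and 8 that held it, and over IL-2/21-Trikine 2 lay above 0. IL-2/21-Trikine over sIL-2 had 1 Mtf1 interval under 0, again in cluster 7 (-0.62).

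**Figure D4:**
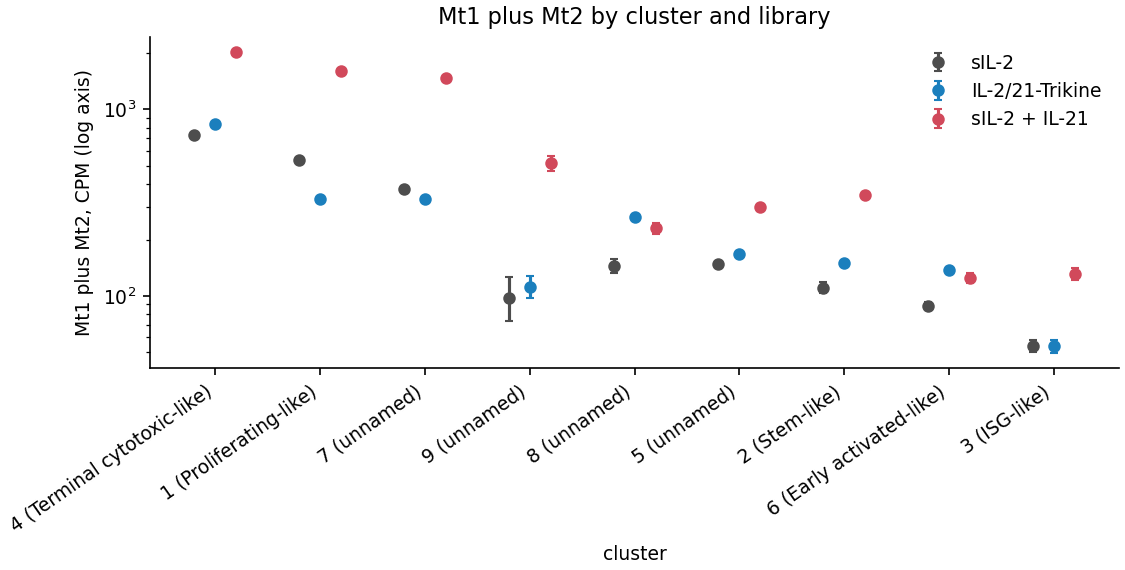
Points give the Mt1 plus Mt2 level (CPM, log axis) of each cluster in each library, with 95% exact Poisson intervals. Levels ran from 53.7 CPM in the ISG-like cluster of sIL-2 to 2022 CPM in the Terminal cytotoxic-like cluster of sIL-2 + IL-21 among the named clusters, with the sIL-2 + IL-21 point above the sIL-2 point in each of the 9 compared.

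The genes that were higher in high cells of all 3 libraries numbered 93 of 8822 (1.05%), and those lower in all 3 numbered 386 (4.38%). Among genes of at least 20 CPM, those named for the highest ratios held a group of killing genes. Gzmg, a granzyme, had log2 ratios of 2.25, 2.60 and 1.83, and Prf1, the pore-forming perforin, 1.69, 1.72 and 1.12. A second group is known from low oxygen. Bnip3, a mitochondrial protein of mitophagy that HIF-1 induces, was at 1.86, 2.05 and 1.56, Ankrd37, a HIF-1 target, at 1.62, 1.34 and 1.05, and Ero1a, an oxidase of the endoplasmic reticulum, at 1.21, 1.11 and 1.18. The rest were Basp1, a membrane-associated protein (1.69, 1.76 and 1.56), Gpr141, an orphan receptor (2.30, 2.14 and 1.19), Il1r2, the decoy receptor for IL-1 (1.34, 2.10 and 0.90), H1f0, a linker histone (1.33, 1.21 and 0.93), and Mtss1, an actin and membrane-binding protein (0.86, 1.07 and 0.80).

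The 5 named genes with the lowest ratios in high cells included genes of early activation and of less differentiated cells. Il3, a cytokine, was at -2.53, -1.92 and -2.91, and Tcf7, which encodes TCF-1, a factor of stem-like T cells, at -2.14, -1.52 and -2.92. Aff3 (-2.05, -1.72 and -2.50), A330040F15Rik (-1.89, -1.63 and -1.65) and Ifi208, an interferon-inducible gene (-1.60, -1.57 and -2.03), were the others.

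Cells with 1 or 2 thinned UMIs against cells with 0, both outside the highest 10%, gave shorter lists. Of 8822 genes, 33 were higher in all 3 libraries (0.374%) and 42 lower (0.476%). The 10 named as higher were Gzmg (1.56, 1.87 and 1.69), Gzmd (1.27, 1.14 and 1.19), Gzmf, Gzme, Gzmc (1.12, 0.69 and 0.77), Gpr141, Prf1, Il1r2, Fcer1g and 1500009L16Rik, of which 5 are granzymes. The 5 named as lower were Ifit3 (-1.45, -1.13 and -1.21), Cxcl10, Slfn5, Rtp4 and Ccl5 (-0.90, -0.75 and -1.18), of which the first 4 are known as interferon-induced genes. Of the 14 other zinc genes 0 were past the threshold here too, and Slc30a1 was at 0.31, 0.28 and 0.11.

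By Pearson's r with Mt1 plus Mt2 over cells of 1 library, 5 of the 10 leading genes encode enzymes of glycolysis. Gapdh was at 0.36, 0.32 and 0.52, Tpi1 at 0.29, 0.29 and 0.47, Aldoa at 0.29, 0.27 and 0.46, Pgk1 at 0.31, 0.27 and 0.44, and Pgam1 at 0.27, 0.24 and 0.41. Bnip3 (0.34, 0.29 and 0.49) and Gzmc (0.45, 0.29 and 0.51) were among them, with Rps2, Txn1 and Mif. These cells share a library and vary in depth and cell cycle, so the values describe the libraries and carry no p.

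The ratios of the killing genes were smaller once cells were compared within the same cluster and range of depth, while those of the low-oxygen genes were closer to the values over all cells. Under that comparison, added after the data were seen and made on 269, 394 and 1844 high cells, Gzmg was at -0.04, 1.27 and 0.70 and Gzmc at 0.30, 0.51 and 0.20, where over all cells Gzmc was at 1.56, 1.43 and 0.79. Prf1 was at 0.42, 0.70 and 0.49. Bnip3 was at 1.39, 1.72 and 1.21, Ero1a at 1.03, 0.95 and 1.03, and Ankrd37 at 1.28, 1.16 and 0.86. Of the 93 genes higher in all 3 libraries 28 were so here, and of the 386 lower ones 48 were. Slc30a1 (0.15, 0.03 and 0.18) and Mtf1 (0.24, -0.13 and 0.17) stayed near 0, and Mt3 was at 0.71, 1.13 and 0.68.

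Lists of genes for known inducers of metallothioneins were read in the same way, as counts over all cells beside the background given above. Within cluster and depth range, here and below, the share of all genes was not counted for single libraries, so such counts have no background. In all 3 libraries together, 28 of 8822 genes were higher and 53 lower there. Of 9 measured hypoxia genes, 8, 7 and 7 were higher in high cells of the 3 libraries and 0 lower, with medians of 0.65, 0.65 and 0.64. Members with many UMIs were Aldoa (0.75, 0.80 and 0.64), Pgk1 (0.65, 0.65 and 0.58) and Ldha, lactate dehydrogenase (0.50, 0.45 and 0.58). Within cluster and depth range the counts were 6, 7 and 4 and the medians 0.66, 0.55 and 0.46. Of 8 heat shock genes 3, 5 and 6 were higher and 0 lower, with medians of 0.45, 0.66 and 0.86. Hsp90aa1, a chaperone, was at 0.26, 0.32 and 0.56, Hspe1 at 0.21, 0.29 and 0.39, Hspd1 at -0.03, 0.09 and 0.35, and Hsph1 at 0.47, 0.57 and 0.81, and the inducible Hsp70 gene Hspa1a, chosen after its values were seen, at 0.75, 1.31 and 1.96. Within cluster and depth range 3, 4 and 5 heat shock genes were higher.

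At the 5 CPM minimum, oxidative stress, glucocorticoid and other metal genes did not follow the high cells as a list. Of 6 measured NRF2 target genes 0 were higher in any library and 1, 0 and 1 were lower, with Prdx1 at 0.02, -0.06 and 0.06 and Txnrd1 at -0.46, -0.23 and -0.23. The full list held 10 genes. Below the minimum, Hmox1, at 3.74 to 3.91 CPM, was at 1.46, 1.16 and 0.39 in high cells. Nqo1, at 0.33 to 0.47 CPM, was at 0.63, 1.32 and 0.07. Within cluster and depth range 0 of the 6 measured genes were past the threshold. Of 8 glucocorticoid response genes 1 was higher in each library, Ddit4 (0.62, 0.62 and 0.57), and 3, 3 and 4 were lower, among them Dusp1 (-0.77, -0.61 and -0.95) and the receptor gene Nr3c1 (-0.86, -0.56 and -0.61). Tsc22d3, which encodes GILZ, a typical glucocorticoid target, was at 0.10, 0.16 and -0.32. Within cluster and depth range 0 of the 8 glucocorticoid response genes were higher and 0, 0 and 1 lower. Of 10 copper and iron genes 1 was higher in each library, Ftl1, the ferritin light chain (0.97, 0.67 and 0.60), while Fth1, the heavy chain, was at 0.18, 0.04 and 0.05 and the copper chaperone gene Cox17 at 0.43, 0.36 and 0.39. Tfrc, the transferrin receptor, was lower in sIL-2 at -0.62. Within cluster and depth range 1, 1 and 0 of the 10 copper and iron genes were higher and 0 lower.

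**Figure D5:**
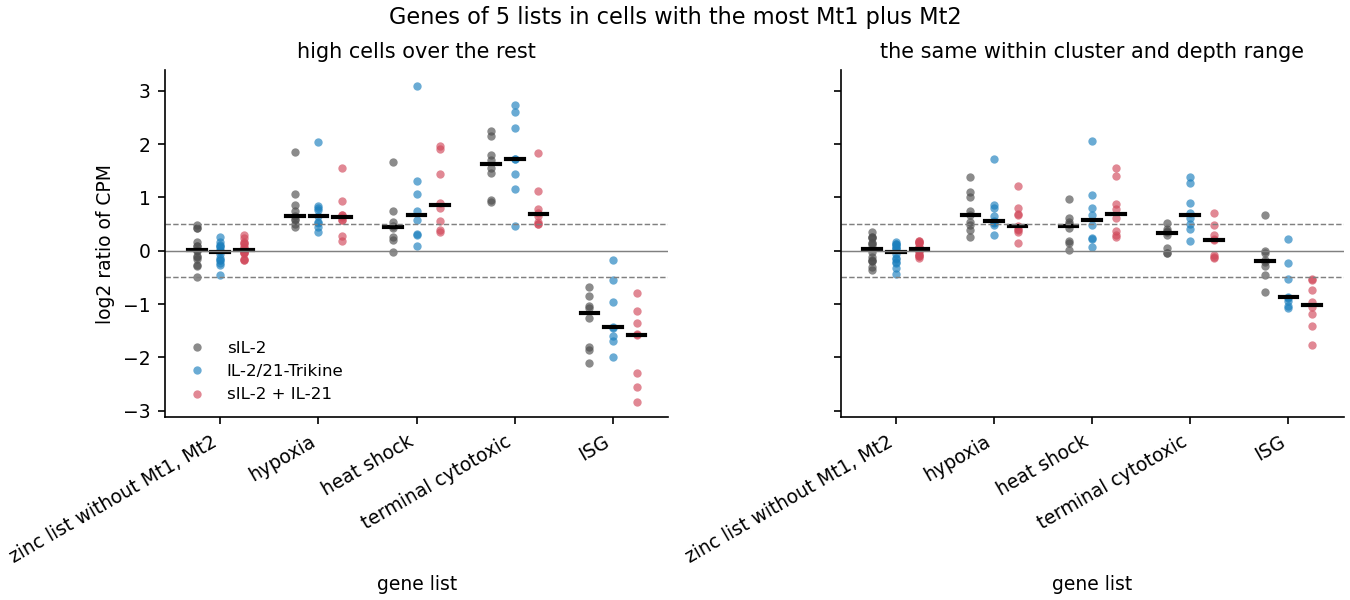
Each point is 1 gene of 5 lists, with its log2 ratio of CPM in high cells over the rest on the vertical axis and a color for each library, first over all cells and then within cluster and depth range. Hypoxia and heat shock genes lay mostly above 0 (7 to 8 of 9 and 3 to 6 of 8 past 0.5 over all cells), and the zinc genes other than Mt1 and Mt2 lay around 0 with 0 past 0.5.

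The motif searched for HIF, ACGTG or GCGTG on both strands, was also counted in the promoters. The Mt1 window held 2, the Mt2 window 2, of which 1 overlapped an MRE core, the Slc30a1 window 1 and the Mtf1 window 0. The windows of Bnip3, Ankrd37 and Ero1a held 5, 4 and 3, and those of Mt3, Gzmc and Prf1 held 0. Over all promoters 43.8% held at least 1, 20.6% at least 2, 8.93% at least 3, 3.86% at least 4 and 1.66% at least 5. MRE cores in the windows of Bnip3, Ankrd37 and Ero1a numbered 0, 1 and 2. Mt3 held 1 MRE core, and Gzmc and Prf1 held 0. A match describes letters and not a binding site.

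Lists of cell state differed in high cells. Of 8 Terminal cytotoxic markers 8, 7 and 8 were higher, with medians of 1.63, 1.72 and 0.69, and of 8 measured ISG markers 8, 7 and 8 were lower, with medians of -1.17, -1.44 and -1.57. Within cluster and depth range 1, 6 and 1 of the Terminal cytotoxic markers were higher and 1, 6 and 8 of the ISG markers lower. Of 9 Early activated markers 9, 7 and 8 were lower, and 3, 4 and 6 within cluster and depth range. Of 7 Stem markers 5, 4 and 5 were lower, and 3, 2 and 3 within cluster and depth range. Of 10 Proliferating markers 6, 0 and 0 were higher, and 0, 0 and 0 within cluster and depth range. Feedback genes of STAT5 and STAT3 signaling, the pathways of IL-2 and IL-21, were not higher in high cells in any library (0 of 7), and 3, 0 and 0 were lower. Il2ra, which encodes the IL-2 receptor chain IL-2Rα, was at -0.62, -0.24 and -0.15, Pim1 at -0.77, -0.33 and -0.48, and Cish at -0.45, -0.30 and -0.37. Of 7 checkpoint receptor genes 3, 1 and 2 were higher and 1, 1 and 2 lower, with Havcr2, which encodes TIM-3, at 0.92, 1.16 and 0.51, Pdcd1, which encodes PD-1, at 0.56, 0.46 and 0.04, Ctla4 at 0.13, -0.11 and -0.18, and Cd160 at -0.92, -1.02 and -1.25. Within cluster and depth range 0, 1 and 0 checkpoint receptor genes were higher and 0, 1 and 1 lower. Of the 7 feedback genes 0 were past the threshold there in any library.

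Batf3, Il1r2 and Gata3 had been named with the metallothioneins in earlier work on these data. Batf3, a transcription factor of the AP-1 family, was at 2.48, 2.28 and 20.6 CPM and had ratios of 0.96, 1.18 and 1.41 in high cells. Il1r2 was at 19.6, 9.67 and 61.5 CPM. Gata3, a transcription factor of T cells, was at 77.1, 54.1 and 43.5 CPM. Its ratios in high cells were -0.86, -0.45 and -0.50, past the threshold in sIL-2 only. Within cluster and depth range 1, 1 and 1 of these 3 genes were higher and 0 lower, with medians of -0.09, 0.39 and 0.48.

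Genes of other cell types moved with the high cells in part. The 6 melanoma markers summed to 54.7 CPM in high cells against 2.67 CPM outside in sIL-2, to 101 CPM against 3.38 CPM in IL-2/21-Trikine, and to 2.01 CPM against 2.07 CPM in sIL-2 + IL-21, with 0 of the 6 at 0 in high cells of any library. These UMIs lay in few cells, with 485 of 817 in 5 cells of sIL-2 and 929 of 1480 in 9 cells of IL-2/21-Trikine. A melanoma UMI was held by 6.38%, 5.57% and 3.94% of high cells, against 3.05%, 3.63% and 2.82% of cells outside. These shares were counted without thinning and high cells were deeper, so the part of depth in them cannot be told apart. In cells with no melanoma UMI, Mt1 plus Mt2 was at 320 CPM, 278 CPM and 1540.4 CPM, nearly the level of all cells (320 CPM, 283 CPM and 1547 CPM). The 10 myeloid markers summed to 462, 216 and 229 CPM in high cells against 185, 74.9 and 189.8 CPM outside, with 2, 1 and 0 of the 10 at 0 in high cells. Most of that sum was Fcer1g, at 176, 56.1 and 189 CPM of 202, 82.7 and 202 CPM over all cells. Fcer1g is among the leading genes of the Terminal cytotoxic-like T cell cluster and had ratios of 1.53, 1.78 and 0.33. Of the 3 myeloid markers that passed the 5 CPM minimum, Fcer1g among them, 1, 3 and 0 were higher in high cells and 2, 0 and 1 lower. The myeloid list therefore had no common direction in high cells over the 3 libraries. The 7 T cell markers were detected in high cells of every library and summed to 4365 CPM there against 5085 CPM outside, 3727 against 4458 CPM, and 3421 against 4401 CPM. Their median log2 ratios in high cells were -0.30, -0.33 and -0.41, and 2 of 7 were lower past the threshold in sIL-2 + IL-21, Cd8a at -0.63 and Trac at -0.56. Without the cells that held a melanoma UMI 90 of the 93 higher genes were again higher in all 3 libraries, and without cluster 10 also 90.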

How the data were processed

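Single-cell RNA-seq of sorted intratumoral Thy1.1+CD8+ cells was read from 3 libraries, 1 per treatment. The values are the authors' unnormalized UMI counts for each gene and cell, as deposited, made with 10x 3' v3.1 chemistry and the Cell Ranger Count pipeline with introns included. The methods name a GRCm39 reference and the submitters' processing notes name mm10, so no coordinate was taken from the counts.

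Cells with 500 to 120000 UMIs and at most 20% mitochondrial UMIs were kept (30857 of 31026). No doublet caller was run, and leaving out the 5% deepest cells was tried instead. Levels were UMIs summed over cells per 1000000 UMIs (CPM), with 95% exact Poisson or binomial intervals (scipy 1.17.1) that cover counting error only. Thinning to 2000 UMIs used a fixed seed. The highest 10%, at 3 thinned Mt1 plus Mt2 UMIs, weighted libraries equally. Ratios in high cells used all UMIs of each cell. Clusters came from 2000 variable genes without zinc and marker genes, 50 principal components, 20 neighbors and the Leiden method at resolution 1.0 (scanpy 1.11.5, leidenalg 0.10.2). With 1 library per treatment no test between treatments was made. Statistics were tested on simulated data.

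Named genes were the zinc list, the 2 to 4 members of each list with the most UMIs and, among genes of at least 20 CPM without receptor segments, the 10 highest minima and 5 lowest maxima over the libraries of the ratio in high cells and of the ratio outside them, and the 10 highest minima of Pearson's r. The genes and lists were chosen with earlier results of these data known. Promoters came from RefSeq on GRCm38.p6, and all 4 genes matched by symbol.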

Additional observations from a re-analysis of the deposited data

How the results depend on the processing

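The higher Mt1 plus Mt2 level of sIL-2 + IL-21 kept its direction over both other libraries under every alternative run, and that of IL-2/21-Trikine over sIL-2 did not. In the order IL-2/21-Trikine over sIL-2, sIL-2 + IL-21 over sIL-2 and sIL-2 + IL-21 over IL-2/21-Trikine, the log2 ratio was 0.13, 2.76 and 2.63 without cells holding 2 or more UMIs of other types' markers (a filter that also removes T cells with Fcer1g), -0.033, 2.51 and 2.55 without the 5% deepest cells, -0.20, 2.27 and 2.47 without cells with a melanoma UMI, -0.21, 2.16 and 2.36 without cluster 10, -0.20, 2.57 and 2.77 without the 1% of cells with the most Mt1 plus Mt2, -0.093, 2.36 and 2.45 with median-of-ratios scaling, -0.025, 2.42 and 2.44 with every cell weighted equally, 0.025, 2.43 and 2.41 with thinned cells, and -0.14, 1.55 and 1.69 with equal cluster shares. The alternative with equal cluster shares covered only the 9 clusters with at least 50 cells in every library, so it also left out cluster 10. Without limits on cells the ratio of sIL-2 + IL-21 over sIL-2 was 2.25. The cause of these shifts was not tested.

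The share of high cells in sIL-2, then IL-2/21-Trikine, then sIL-2 + IL-21, was 2.28%, 2.86% and 17.0% without cells of other types, 3.28%, 3.29% and 19.3% without the deepest cells, 2.97%, 3.04% and 20.4% after thinning to 5000 UMIs, and 1.07%, 0.963% and 10.9% for the highest 5%. In sIL-2 + IL-21 it was 19.4% without cluster 10 and 22.8% per 10000 UMIs without thinning. Genes higher in high cells of all 3 libraries fell in number to 41 within clusters and 28 within cluster and depth range, and lower ones to 94 and 53. With the zinc genes among the clustering genes, sIL-2 + IL-21 was above sIL-2 in 90.9% of 11 clusters. At resolution 0.5, IL-2/21-Trikine was above sIL-2 in 33.3% of clusters. Of the other zinc genes, at a minimum of 1 CPM 1 was past the threshold in sIL-2 + IL-21 over sIL-2 (Mt3) and 2 over IL-2/21-Trikine, and at 20 CPM 0 were past it in IL-2/21-Trikine over sIL-2 and 0 in sIL-2 + IL-21 over IL-2/21-Trikine. No paired analysis was possible because each treatment had 1 library. Depth limits Slc30a1 and Mtf1 in single cells, where 1.27% to 3.56% of thinned cells held a UMI. The alternatives without melanoma UMIs, cluster 10 or the top 1% and that within depth range were chosen after seeing the data.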

Other observations

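The cells of cluster 10, where Mt1 plus Mt2 was highest, had leading genes that differed in part between libraries, a comparison chosen after the values were seen. A T cell marker UMI was held by 72.9% of its 48 cells in sIL-2, 92.5% of 791 in IL-2/21-Trikine and 93.7% of 252 in sIL-2 + IL-21. The cells were shallow in the first 2 libraries, with medians of 1713 and 750 UMIs against 15148.5 UMIs in sIL-2 + IL-21. In sIL-2 + IL-21 the 6 melanoma markers summed to 15.5 CPM. The genes furthest above the other cells of that library were Hspa1a at 151 CPM against 14.6 CPM, Hspb1 at 78.7 CPM and Hspa1b at 154 against 18.3 CPM, inducible heat shock genes, followed by Mt2 at 3175 against 477 CPM and Mt1 at 5210.5 against 916 CPM, and by Dnajb1 and Hsph1, which also encode chaperones. In sIL-2 the leading genes were 4 hemoglobin genes, with erythroid UMIs in 2.08% of the 48 cells, followed by the pigment cell gene Dct. In IL-2/21-Trikine Dct, Tyrp1 and Mlana led, with 0 erythroid UMIs, and melanoma markers summed to 1553 CPM in sIL-2 and 477 CPM in IL-2/21-Trikine. Dct, Tyrp1 and Mlana were among the leading genes of both libraries. A melanoma UMI was held by 31.25% of the 48 cells in sIL-2. In IL-2/21-Trikine only 3.41% of the 791 cells held one, beside 3.49% of all cells of that library, so its leading genes rested on few cells. The 8 heat shock genes were above the other cells in all 3 libraries, at 3940.0 against 1704 CPM, 3303 against 2092 CPM and 3891 against 1846 CPM, as were the 10 hypoxia genes, at 5320.1 against 2188 CPM, 2785 against 1875 CPM and 3841 against 2379 CPM. Such sums weight cells by their depth, and the part that cells with melanoma UMIs had in them was not tested. Clusters were made from the expression of the same cells, so the ratios are a description.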
